A study of Mus musculus with 12 samples.

Results

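The genes of the translation initiation factors were described in mouse dorsal root ganglia after spinal cord injury, with and without a transketolase virus and with and without ribose. A gene was a member when its Ensembl identifier belonged to a protein-coding mouse gene whose symbol begins with Eif and a digit from 1 to 6, so subunits, the eIF2 kinases and the eIF4E-binding proteins were all included. The annotation holds 55 such genes. The AAV table listed 53 of them among 13178 genes, and the ribose table listed 54 among 21650 genes. Of these, 53 members reached an average of 1 FPKM, a fragment level normalized for transcript length and library total, in each table and were tested. Eif4e1b, a germ-cell relative of the cap-binding protein, was listed in neither table. Eif4ebp3, a gene of an eIF4E-binding protein, was listed in the ribose table alone, at 1.05 FPKM in Vehicle replicate 1 and at 0 in the other 5 libraries.

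Translation initiation brings a ribosome, the initiator methionyl-tRNA and the start codon of an mRNA together. eIF2 carries the initiator tRNA as a complex with GTP, eIF2B recharges eIF2 with GTP, and stress kinases block that exchange by phosphorylating the eIF2 alpha subunit. eIF4E binds the mRNA cap and, with the scaffold eIF4G and the helicase eIF4A, recruits the small ribosomal subunit through eIF3. The 4E-binding proteins hold eIF4E back until mTORC1 phosphorylates them. In sensory neurons, protein synthesis in the cell body and in the axon is known to change after nerve injury.

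The libraries came from lumbar (L4 to L6) dorsal root ganglion neurons, as labelled, of C57BL/6J mice aged 8 weeks, and every group was taken 72 h after spinal cord injury, so no uninjured group was compared. The AAV experiment used an adeno-associated virus coding for green fluorescent protein (AAV-GFP, 3 libraries) or for transketolase (AAV-TKT, 3 libraries), an enzyme of the pentose phosphate pathway, given through the sciatic nerve for 4 weeks. In the ribose experiment, mice received 10% ribose (Ribose, 3 libraries) or its vehicle (Vehicle, 3 libraries). The promoter of the viruses, the route of the ribose and the number of animals behind a library were not given in the sources used here.

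Transketolase itself (Tkt) was listed at 98.1 to 106 FPKM in the AAV-GFP libraries and at 223 to 262 FPKM in the AAV-TKT libraries. All 8 neuronal marker genes were listed, and their summed level was 6367 to 7194 FPKM in AAV-GFP and 7526 to 8457 FPKM in AAV-TKT, without overlap, and 7178 to 7908 FPKM in Vehicle and 6843 to 7538 FPKM in Ribose, with overlap. The libraries also held RNA of other cells, since the 6 satellite glia markers summed to between 183 and 707 FPKM. The 10 neutrophil markers summed to 97.3 to 263 FPKM in AAV-GFP and to 20.1 to 32.1 FPKM in AAV-TKT, and the 6 listed of 9 macrophage markers summed to 35.9 to 48.0 and 12.9 to 19.1 FPKM. The red cell markers (6 listed of 7) were also lower in AAV-TKT, at 71.9 to 94.4 against 113 to 476 FPKM. The Schwann cell marker sum was lower in the treated group of both experiments. It was 305 to 333 FPKM in AAV-TKT against 356 to 387 FPKM in AAV-GFP (5 listed of 7). In the ribose experiment it was 388 to 404 FPKM in Ribose against 443 to 494 FPKM in Vehicle (7 listed of 7). The mean log2(FPKM + 1) of these 7 markers overlapped between Ribose and Vehicle. The satellite glia and fibroblast sums overlapped between the groups of both experiments, and in the ribose experiment so did the endothelial, macrophage, neutrophil and red cell sums. Ribose replicate 2 had the lowest neutrophil sum of the ribose experiment, 12.9 FPKM, against 29.3 to 170 FPKM in Vehicle, and 4 of its 9 macrophage markers were at 0. The part of these markers in the values given here was not tested. Nothing in the labels says that the replicates came from separate animals, so the p-values rest on the spread between these libraries alone, which may be technical. In such bulk samples, fewer cells of a type and less RNA per cell cannot be told apart. Read counts were not part of the tables, so the depth behind each FPKM value is unknown.

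The sequences before 3 member genes are printed for reference, and no comparison of groups rests on them. The genes are the paralogs Eif4a1 and Eif4a2, whose ratio separated the ribose groups, and Eif2s3y. The difference of Eif2s3y was the most negative of all members in both comparisons. The sequences are RefSeq promoter windows of build GRCm38.p6, which start 250 bases before the RefSeq transcript start. They are cut where the GENCODE M21 gene begins, so that no base of the annotated gene itself is shown. Capitals mark the motifs that were searched on both strands: the CCAAT box (CCAAT), the GC box (GGGCGG), an ETS core (CCGGAAG), the TATA box (TATAAA) and the cyclic AMP response element (TGACGTCA).
Eif4a1, chr11:69672424-69672673, minus strand: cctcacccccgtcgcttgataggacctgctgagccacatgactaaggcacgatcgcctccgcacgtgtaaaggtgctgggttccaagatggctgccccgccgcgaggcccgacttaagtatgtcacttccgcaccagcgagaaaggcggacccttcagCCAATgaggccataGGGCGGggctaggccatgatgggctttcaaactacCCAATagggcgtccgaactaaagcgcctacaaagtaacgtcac
Eif4a2, chr16:23107218-23107443, plus strand: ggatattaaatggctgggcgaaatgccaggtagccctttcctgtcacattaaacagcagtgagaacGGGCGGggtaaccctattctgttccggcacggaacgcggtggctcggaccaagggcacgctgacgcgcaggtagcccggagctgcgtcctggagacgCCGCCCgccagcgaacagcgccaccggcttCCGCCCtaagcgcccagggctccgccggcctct
Eif2s3y, chrY:1010345-1010542, plus strand: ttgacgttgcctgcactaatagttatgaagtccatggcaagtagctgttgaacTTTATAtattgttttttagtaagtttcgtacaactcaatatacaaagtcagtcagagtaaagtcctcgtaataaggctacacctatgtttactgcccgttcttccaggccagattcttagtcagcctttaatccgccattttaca
The Eif4a1 window held 2 CCAAT boxes and 1 GC box, the Eif4a2 window held 3 GC boxes, and the Eif2s3y window held 1 match to the TATA box. Guanine and cytosine made up 58.8%, 65.0% and 38.4% of these 3 windows.

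RefSeq windows of the full 250 bases were found for 43 of the 55 members, 56 windows in all. A GC box was present in 67.9% of them, against 32.7% of the 32851 windows of all genes. The ETS core was present in 21.4% against 6.91%, the CCAAT box in 25.0% against 33.9%, and the TATA box in 7.14% against 12.4%. No member window held the cyclic AMP response element, which was in 1.55% of all windows. GC boxes and ETS cores are common in the CpG-rich promoters of broadly expressed genes. A match is a run of letters and not a measured binding site.

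The members were expressed at very different levels. Eif4a2, a helicase of the cap-binding complex, was highest, with a mean of 391 FPKM over the AAV libraries and 415 FPKM over the ribose libraries. Eif4g2, Eif1, Eif5a and Eif1b followed, and these 5 genes made up 41.6% of the summed FPKM of the members in the AAV table and 42.7% in the ribose table. The lowest tested member of the AAV table was Eif4ebp1 with 2.23 FPKM, and that of the ribose table was Eif2ak4 with 2.91 FPKM. All members together made up between 0.766% and 0.811% of the FPKM total of the AAV libraries and between 0.788% and 0.826% in the ribose experiment, when the abundant small RNA Rn7s2 was left out of the total. The 2 tables were normalized separately, so levels are compared between genes of a table and not between tables.

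**Figure D1:**
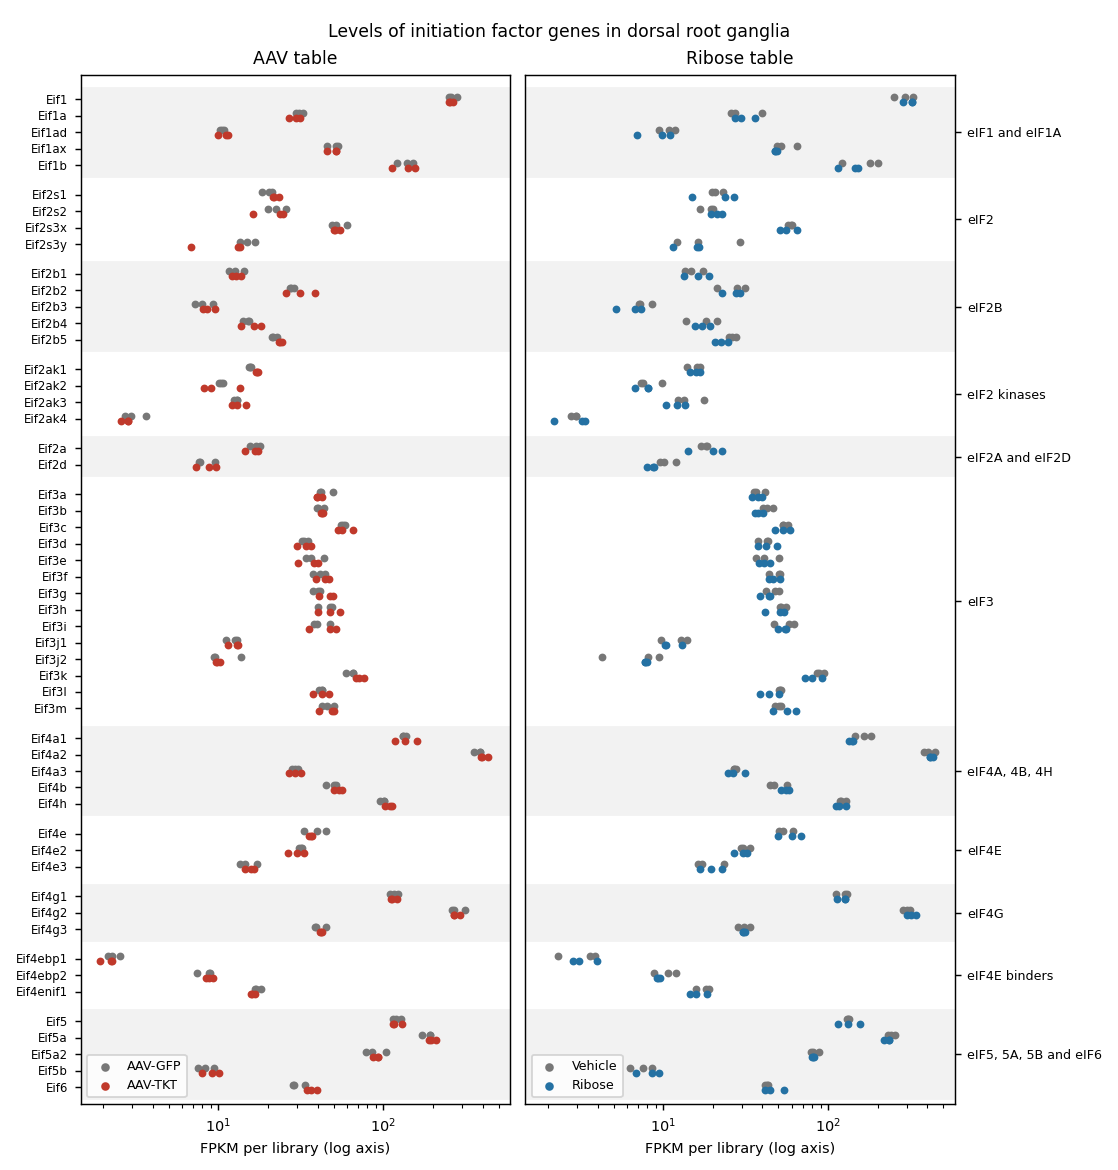
FPKM of 53 initiation factor genes in each of the 6 libraries of the AAV table (left) and of the ribose table (right), on a log axis, ordered by complex. The eIF3 subunits lie close together except Eif3j1 and Eif3j2, while the eIF1, eIF4A and eIF5 groups span more than 10-fold; Eif4e1b and Eif4ebp3 are not drawn.

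The question of the AAV comparison was how these genes differed between AAV-TKT and AAV-GFP. None of the 53 tested members passed the threshold (limma on log2(FPKM + 1), Benjamini-Hochberg adjusted p under 0.05 over all 13178 genes), and 2 genes of the whole table did (0.0152%). At an unadjusted p under 0.05 there were 3 members of 53, Eif6, Eif3g and Eif3k, against 10.6% of all genes. This count was 1 with equal FPKM totals, with median-of-ratios scaling, without AAV-GFP replicate 1 and without AAV-GFP replicate 2. It was also 1 without AAV-GFP replicate 3 and AAV-TKT replicate 2 together. Shares of all genes at this p were not computed for these alternatives. The median log2 difference, AAV-TKT minus AAV-GFP, was 0.03 over the members and 0.01 over all genes, and the members ranged from -0.44 for Eif2s3y to 0.28 for Eif6. As deposited 33 differences were positive and 20 negative, but only 17 were positive when the libraries were scaled to equal FPKM totals, so no common direction is read from them. In 7 members every AAV-TKT library was above every AAV-GFP library (11.3% of all genes), and in 2 every AAV-TKT library was below (7.2% of all genes). This split of 7 above and 2 below became 2 and 3 with equal totals, 4 and 5 with protein-coding genes at equal totals, and 6 and 2 with median-of-ratios scaling. For those scalings the share of all genes was not computed, so these counts are not compared with it. Under each of 3 other scalings Eif6 and Eif2ak1 still separated upward and Eif4enif1 downward. The neuron marker sum given above was also higher in every AAV-TKT library, and its part in these differences was not tested.

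Ribose against Vehicle also gave no called member of 53, while 1 gene of 13804 tested was called (0.00724%). No member had an unadjusted p under 0.05, against 4.79% of all genes. There were 2 such members with the replicate number as a block. There was 1 each without Vehicle replicate 2, without Vehicle replicate 3, without Ribose replicate 2, and without Vehicle replicate 2 and Ribose replicate 2 together. For these alternatives the share of all genes at this p was not computed. The median log2 difference, Ribose minus Vehicle, was -0.03 over the members and -0.02 over all genes, with a range from -0.29 for Eif2s3y to 0.17 for Eif4b. There were 20 positive and 33 negative differences as deposited, and 32 positive when protein-coding genes were scaled to equal totals. No member had all Ribose libraries above all Vehicle libraries (4.28% of all genes), and 4 members had them below (5.35% of all genes): Eif4a1, Eif2b5, Eif2d and Eif3b. With equal totals only Eif2d and Eif4a1 stayed below, and with protein-coding genes at equal totals Eif2d and Eif3b did while Eif4a2 and Eif4g2 separated upward. Here too, the share of all genes was not computed for the other scalings. The Schwann cell marker sum was also lower in every Ribose library, but the mean log2(FPKM + 1) of the same 7 markers overlapped. This mean was 3.68 to 4.12 in Vehicle and 3.02 to 3.80 in Ribose. The part of these markers in the differences was not tested.

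The intervals describe the spread between libraries around each difference as deposited, and they leave out the choice of scaling. In the AAV comparison the 95% interval of the log2 difference, which is not adjusted for the number of genes, lay within 1.5-fold either way for 52 of 53 members and within 2-fold for all 53. The exception at 1.5-fold was Eif2s3y. Among all genes 83.1% had an interval within 1.5-fold. In the ribose comparison 46 of 53 members and 39.8% of all genes had an interval within 1.5-fold, and 52 members had one within 2-fold, again without Eif2s3y. The members were also more abundant than the average gene, with a median of 33.4 against 10.1 FPKM in the AAV table and 37.6 against 10.2 FPKM in the ribose table. Their median SD within groups on the log2 scale was 0.11 against 0.13 for all genes in the AAV table, and 0.15 against 0.26 in the ribose table. An interval of this kind covers the spread between 3 libraries a group on the log2(FPKM + 1) scale, which understates the change of low genes.

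**Figure D2:**
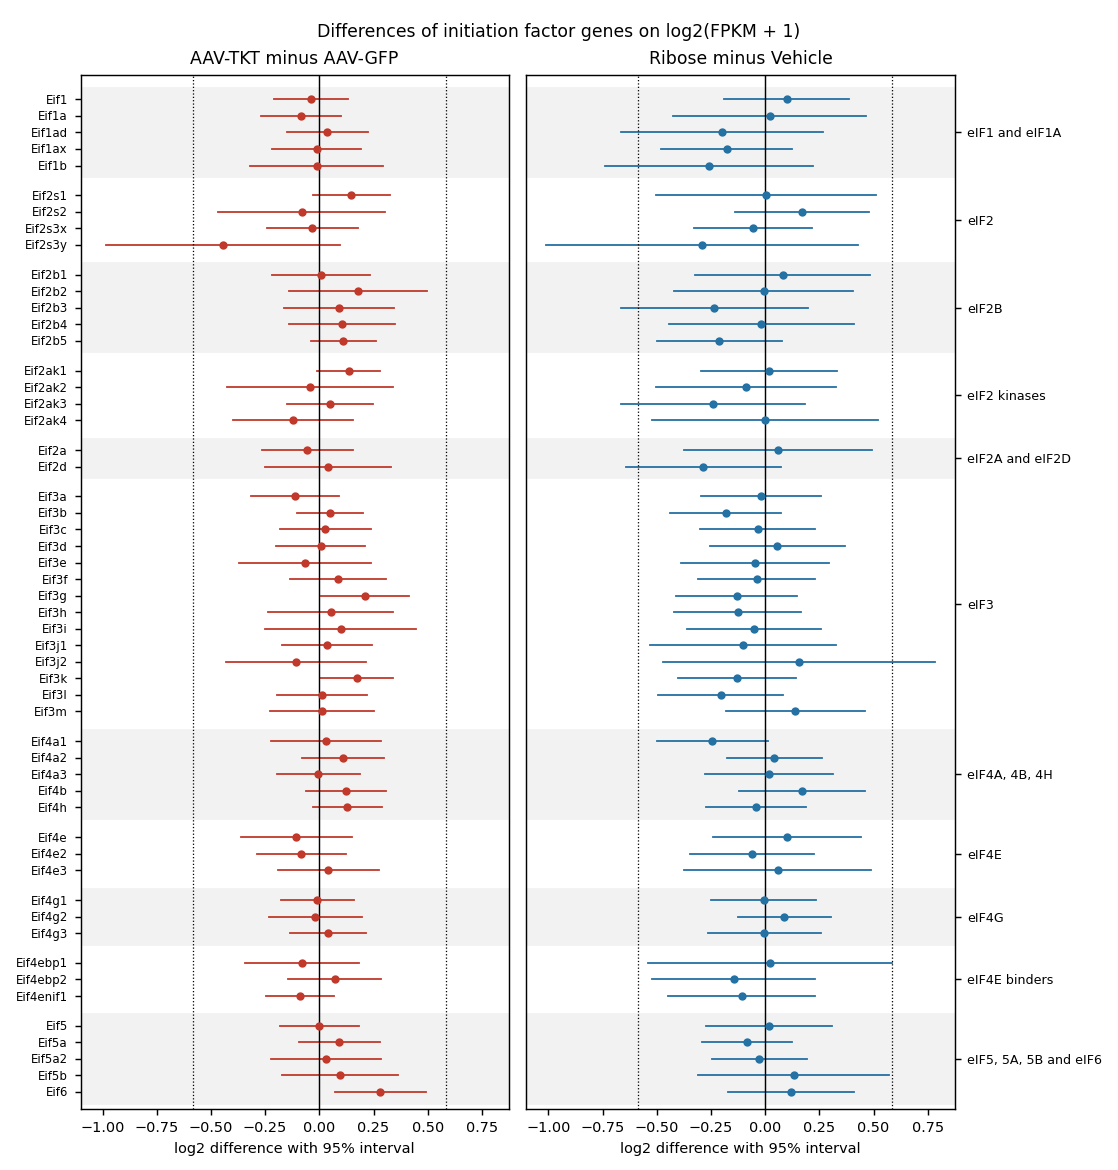
Log2 differences of 53 initiation factor genes with 95% intervals (lines) on the log2(FPKM + 1) scale, for AAV-TKT minus AAV-GFP (left) and Ribose minus Vehicle (right), n = 3 libraries a group; dotted lines mark 1.5-fold. All but 3 intervals, those of Eif6, Eif3g and Eif3k on the left, include 0, those of Eif2s3y are the widest, and the median half-width is 0.21 on the left and 0.31 on the right.

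eIF1 and eIF1A keep the small subunit open while it scans for a start codon. Eif1 had 257, 281 and 252 FPKM in the AAV-GFP libraries and 254, 263 and 250.1 FPKM in the AAV-TKT libraries, and the groups overlapped (log2 difference -0.04). It had 251, 293 and 327 FPKM in Vehicle and 323, 283 and 323 FPKM in Ribose, again with overlap (0.10). Its relative Eif1b was more variable in the ribose experiment, at 121 to 202 FPKM in Vehicle and 115 to 152 FPKM in Ribose. Eif1ax, the X-linked gene of eIF1A, overlapped in the AAV experiment, at 51.5, 53.2 and 45.4 FPKM in AAV-GFP and 45.5, 51.5 and 51.7 FPKM in AAV-TKT (-0.01). In the ribose experiment it stood at 48.7, 64.9 and 52.1 FPKM in Vehicle and at 47.9, 47.9 and 49.3 FPKM in Ribose. The 3 Ribose values lay close together and inside or just under the Vehicle range, and the log2 difference was -0.18 with an interval from -0.48 to 0.12. Eif1a and Eif1ad had log2 differences between -0.20 and 0.04 in both comparisons.

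Of the genes of eIF2, Eif2s1 codes for the alpha subunit that the stress kinases phosphorylate. It had 21.1, 18.5 and 20.2 FPKM in AAV-GFP and 21.4, 21.8 and 23.3 FPKM in AAV-TKT. The groups did not overlap, though the nearest libraries differed by less than the spread within AAV-GFP (log2 difference 0.15, limma adjusted p = 0.516). The groups overlapped with equal totals and with protein-coding genes at equal totals. In the ribose experiment this gene had 23.0, 19.7 and 20.7 FPKM in Vehicle and 26.8, 14.9 and 23.7 FPKM in Ribose, so both the lowest and the highest library were in the Ribose group. Eif2s2, the beta subunit, overlapped in both experiments.

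The gamma subunit is coded by Eif2s3x on the X chromosome and Eif2s3y on the Y chromosome (chrY:1010543-1028847 in GRCm38, plus strand). Eif2s3y had 13.6, 16.6 and 14.8 FPKM in AAV-GFP and 13.5, 13.2 and 6.83 FPKM in AAV-TKT. AAV-TKT replicate 3 was far below the other 5 libraries. The other 2 AAV-TKT libraries lay just under the lowest AAV-GFP library as deposited, and the groups overlapped with equal totals. The log2 difference was -0.44, with an interval from -0.99 to 0.10 (limma adjusted p = 0.516). The same library was also the lowest of the 6 for 3 other Y-linked genes, Ddx3y at 11.2, Uty at 6.37 and Kdm5d at 2.04 FPKM, where the next lowest libraries had 14.7, 6.76 and 3.16 FPKM. Eif2s3x was not low in it, with 51.9, 59.9 and 48.7 FPKM in AAV-GFP and 50.9, 55.0 and 50.5 FPKM in AAV-TKT (log2 difference -0.03). The ratio of Eif2s3x to Eif2s3y was therefore 7.40 there and 3.28 to 4.18 in the other 5 libraries. Eif2s3x overlapped in the ribose experiment as well, at 59.9, 57.3 and 60.2 FPKM in Vehicle and 64.4, 50.9 and 55.9 FPKM in Ribose (-0.06). Eif2s3y had 29.0, 16.4 and 12.1 FPKM in Vehicle and 16.5, 11.5 and 15.96 FPKM in Ribose. Vehicle replicate 1 was the highest library, and its Ddx3y, Uty and Kdm5d were not the highest of the 6. Without that library the log2 difference of Eif2s3y turned from -0.29 to 0.04.

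eIF2B, the exchange factor of eIF2, has 5 subunits coded by Eif2b1 to Eif2b5, and Eif2b5 codes for the catalytic epsilon subunit (chr16:20498817-20509323, plus strand). Eif2b5 had 21.5, 22.8 and 21.3 FPKM in AAV-GFP and 23.6, 24.3 and 23.2 FPKM in AAV-TKT. Every AAV-TKT library was above every AAV-GFP library by a small margin (log2 difference 0.11, interval -0.04 to 0.26), but not with equal totals. It had 27.8, 24.9 and 26.1 FPKM in Vehicle and 22.5, 20.6 and 24.7 FPKM in Ribose. There every Ribose library was below every Vehicle library, also by a small margin (-0.21, interval -0.50 to 0.08), and this separation was lost with equal totals and with protein-coding genes at equal totals. Eif2b2, the most abundant subunit, had 28.5, 27.5 and 27.3 FPKM in AAV-GFP against 38.8, 25.7 and 31.4 FPKM in AAV-TKT, and the high value of AAV-TKT replicate 1 sat beside the lowest value of all in replicate 2. Eif2b2 had 31.3, 21.3 and 28.0 FPKM in Vehicle and 29.4, 27.7 and 22.7 FPKM in Ribose, with full overlap. All 5 subunits had a positive difference in the AAV comparison as deposited and 4 of 5 under each other scaling, with none past the threshold.

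The 4 kinases of eIF2 alpha respond to different stresses: Eif2ak1 (HRI) to lack of heme, Eif2ak2 (PKR) to double-stranded RNA, Eif2ak3 (PERK) to unfolded proteins in the endoplasmic reticulum and Eif2ak4 (GCN2) to lack of amino acids. Eif2ak1 had 15.8, 15.6 and 15.3 FPKM in AAV-GFP and 17.2, 17.4 and 17.0 FPKM in AAV-TKT. The groups were tight and did not overlap, with a log2 difference of 0.14 (interval -0.01 to 0.28, limma adjusted p = 0.489). The ribose groups of the same gene overlapped fully, at 14.03, 15.999 and 16.6 FPKM in Vehicle and 16.7, 14.6 and 15.9 FPKM in Ribose. Eif2ak1 overlaps Aimp2 on the other strand, and whether reads were counted by strand was not given in the sources used here.

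Eif2ak2 had 10.0, 10.7 and 10.3 FPKM in AAV-GFP and 8.22, 13.5 and 8.96 FPKM in AAV-TKT, so AAV-TKT held the highest and the 2 lowest libraries. Eif2ak3 had 12.9, 12.9 and 12.4 FPKM in AAV-GFP and 14.7, 12.1 and 13.04 FPKM in AAV-TKT. Both overlapped, with log2 differences of -0.04 and 0.05. The ribose libraries of Eif2ak2 had 7.49, 7.35 and 9.81 FPKM in Vehicle and 8.06, 6.73 and 8.12 FPKM in Ribose. Eif2ak3 had 13.4, 17.7 and 12.3 FPKM in Vehicle and 12.1, 13.6 and 10.4 FPKM in Ribose. The lower Ribose mean of Eif2ak3 (log2 difference -0.24, interval -0.66 to 0.18) came with overlapping groups. Eif2ak4 was the least abundant kinase, at 2.95, 2.71 and 3.61 FPKM in AAV-GFP and 2.84, 2.57 and 2.82 FPKM in AAV-TKT. It had 2.75, 2.98 and 2.95 FPKM in Vehicle and 3.23, 2.18 and 3.37 FPKM in Ribose, and its groups overlapped in both experiments.

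eIF2A and eIF2D deliver initiator tRNA by routes that do not need eIF2. Eif2d (chr1:131153181-131187658, plus strand) had 12.0, 10.2 and 9.60 FPKM in Vehicle and 7.97, 8.77 and 8.70 FPKM in Ribose. Every Ribose library was below every Vehicle library, also under the 3 other scalings, and the log2 difference was -0.28 (interval -0.64 to 0.07, limma adjusted p = 1.00). In the AAV experiment Eif2d overlapped, at 7.70, 9.55 and 7.595 FPKM in AAV-GFP and 9.64, 8.72 and 7.31 FPKM in AAV-TKT. The gene overlaps Rassf5 on the other strand. Eif2a had 15.6, 17.98 and 16.9 FPKM in AAV-GFP and 14.6, 17.3 and 16.6 FPKM in AAV-TKT. It had 18.5, 18.1 and 16.9 FPKM in Vehicle and 20.1, 22.6 and 14.1 FPKM in Ribose, where the Ribose libraries held both extremes.

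eIF3 is the large scaffold between the ribosome, the mRNA and eIF4G. The mRNA levels of its 12 subunits other than Eif3j1 and Eif3j2 lay within 2.03-fold in the AAV table, from 33.3 FPKM for Eif3d to 67.7 FPKM for Eif3k. They lay within 2.27-fold in the ribose table, from 37.6 FPKM for Eif3a to 85.5 FPKM for Eif3k. Eif3j1 and Eif3j2, the genes of the loosely bound j subunit, were lower, at 12.3 and 10.4 FPKM in the AAV table. Of the 31-base words in the transcripts of Eif3j2, 93.95% also occur in Eif3j1, so reads of these genes may have been shared between them and their values are uncertain.

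Eif3k (chr7:28971372-28981864, minus strand) had 65.9, 65.1 and 59.8 FPKM in AAV-GFP and 70.9, 76.1 and 68.2 FPKM in AAV-TKT. Every AAV-TKT library was above every AAV-GFP library, and the log2 difference was 0.17 (interval 0.00 to 0.34, limma adjusted p = 0.471). The groups of Eif3k overlapped with equal totals. Eif3g (chr9:20894349-20898623, minus strand), which has an RNA-binding domain, had 40.2, 37.2 and 41.0 FPKM in AAV-GFP and 49.2, 47.5 and 40.9 FPKM in AAV-TKT. Its AAV-TKT replicate 3 fell inside the AAV-GFP range and the other 2 libraries lay above it (log2 difference 0.21, interval 0.01 to 0.41, limma adjusted p = 0.468). Neither gene separated the ribose groups. Eif3k was at 94.3, 87.7 and 85.7 FPKM in Vehicle and 92.3, 72.9 and 79.9 FPKM in Ribose, and Eif3g at 41.7, 47.6 and 50.05 FPKM in Vehicle and 44.4, 38.6 and 43.8 FPKM in Ribose.

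Eif3b, a core subunit that binds RNA (chr5:140419328-140443360, plus strand), had 40.25, 46.3 and 42.7 FPKM in Vehicle and 37.5, 40.17 and 35.9 FPKM in Ribose. The groups were separated by less than 0.1 FPKM (log2 difference -0.18, interval -0.44 to 0.07) and overlapped with equal totals. Eif3l had 50.9, 51.5 and 50.6 FPKM in Vehicle, a narrow range, and 43.9, 50.6 and 38.6 FPKM in Ribose, where the highest library reached the lowest of Vehicle (-0.21). In the AAV experiment Eif3b had 39.4, 43.45 and 40.4 FPKM in AAV-GFP and 42.2, 43.2 and 42.2 FPKM in AAV-TKT, and Eif3l had 42.6, 42.2 and 40.5 against 37.5, 46.9 and 42.5 FPKM. Over the 14 eIF3 genes, 11 differences were positive in the AAV comparison as deposited and 4 with equal totals. In the ribose comparison 11 were negative as deposited and 6 with protein-coding genes scaled to equal totals.

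eIF4A unwinds the mRNA near the cap, and eIF4B and eIF4H stimulate it. Eif4a1 (chr11:69666936-69672423, minus strand) and Eif4a2 (chr16:23107444-23114136, plus strand) code for closely related helicases, and their transcripts share no 31-base word. Eif4a1 had 165, 183 and 145 FPKM in Vehicle and 141, 140.2 and 133 FPKM in Ribose. Every Ribose library was below every Vehicle library, and the log2 difference was -0.24 (interval -0.50 to 0.01, limma adjusted p = 1.00). It was the member with the smallest p in that comparison. The groups of Eif4a1 overlapped when protein-coding genes were scaled to equal totals. Eif4a2 did not follow, with 402, 445 and 382 FPKM in Vehicle and 416, 431 and 416 FPKM in Ribose (0.04), and its Ribose libraries were all above Vehicle when protein-coding genes were scaled to equal totals.

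The ratio of Eif4a2 to Eif4a1 within a library does not depend on the scaling of the library. It was 2.43, 2.43 and 2.63 in Vehicle and 2.94, 3.07 and 3.13 in Ribose. The groups did not overlap, and the means were 2.50 ± 0.116 (SD, n = 3) and 3.05 ± 0.0948 (SD, n = 3). In the AAV experiment the ratio was 2.95, 2.82 and 2.67 in AAV-GFP and 3.35, 2.71 and 2.89 in AAV-TKT, with overlap. Of 14 ratios computed, 7 in each table, this was the only ratio whose groups did not overlap, and no test was made of it. How many of 14 such ratios separate by library spread alone was not estimated, so no response to ribose is read from this separation. Of the words of Eif4a1, 31.1% also occur in other genes, chiefly a processed pseudogene, and of those of Eif4a2 14.9% do. Both genes also overlap other genes on the same strand, among them Snora81 and Snord2 for Eif4a2. Among all members, 18 overlap another gene on the same strand.

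Eif4a1 in the AAV experiment had 131, 138 and 133 FPKM in AAV-GFP and 118, 159 and 135 FPKM in AAV-TKT, so AAV-TKT held the lowest and the highest library. Eif4a2 had 386, 388 and 353 FPKM in AAV-GFP and 397, 432 and 389 FPKM in AAV-TKT, where the lowest AAV-TKT library was barely above the highest AAV-GFP library (log2 difference 0.11). Eif4h had 100.7, 101.5 and 94.98 FPKM in AAV-GFP and 112, 110.4 and 102.4 FPKM in AAV-TKT, also without overlap (0.13, interval -0.03 to 0.29). The separation of Eif4a2 was lost under each of the 3 other scalings. That of Eif4h was lost with equal totals and with protein-coding genes at equal totals. Eif4h in the ribose experiment had 119, 129 and 118 FPKM in Vehicle and 111, 129 and 116 FPKM in Ribose. Eif4b had 47.1, 56.4 and 44.1 FPKM in Vehicle and 51.9, 58.2 and 55.4 FPKM in Ribose, and 49.9, 51.9 and 45.2 FPKM in AAV-GFP against 56.1, 54.0 and 50.04 FPKM in AAV-TKT. Its groups overlapped both times, with log2 differences of 0.17 and 0.12. Eif4a3, a helicase of the exon junction complex rather than of the cap, was within 0.02 of 0 in both.

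**Figure D3:**
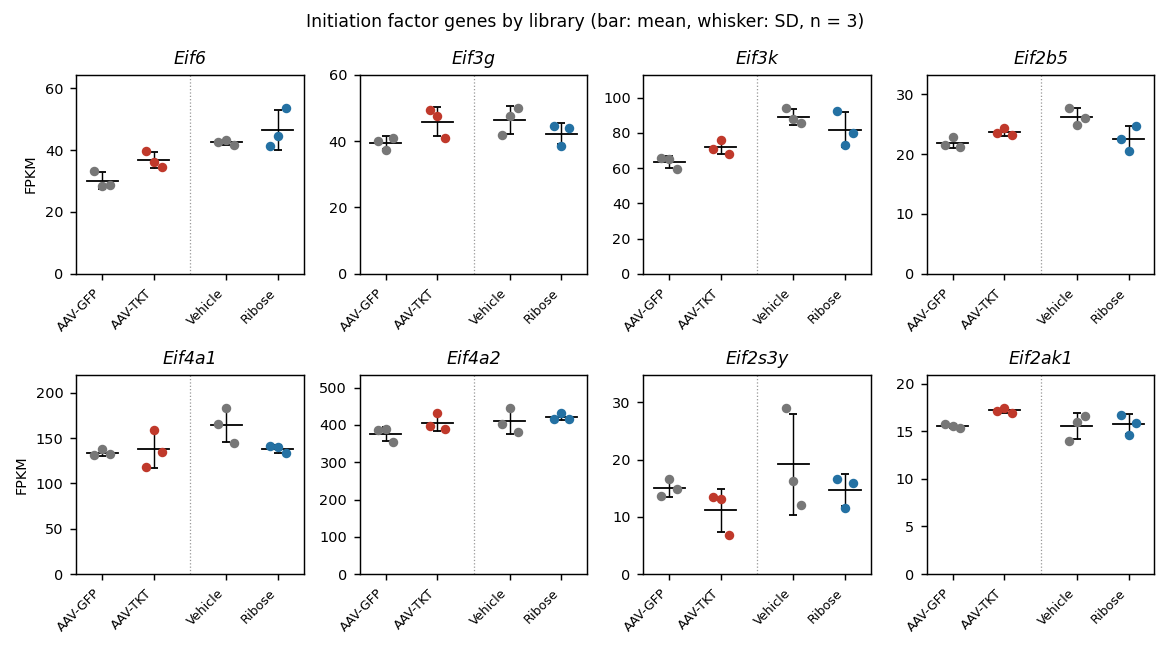
FPKM by library for 8 initiation factor genes, with the mean (bar) and the SD (whisker) of 3 libraries a group; the dotted line separates the AAV table from the ribose table. Eif6, Eif3k, Eif2b5, Eif4a2 and Eif2ak1 do not overlap between AAV-GFP and AAV-TKT, Eif4a1 and Eif2b5 do not overlap between Vehicle and Ribose, and 1 AAV-TKT library is far below the rest in Eif2s3y.

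The cap-binding protein Eif4e had 39.7, 45.1 and 33.2 FPKM in AAV-GFP and 36.8, 35.4 and 36.5 FPKM in AAV-TKT. The AAV-TKT libraries lay together inside the AAV-GFP range (log2 difference -0.11). In the ribose experiment it had 53.5, 61.1 and 50.1 FPKM in Vehicle and 68.0, 60.3 and 49.5 FPKM in Ribose, again with overlap (0.10). Of the scaffolds, Eif4g2, a relative of eIF4G that lacks the eIF4E-binding site, was the most abundant. It had 268, 313 and 261 FPKM in AAV-GFP and 292.5, 267 and 269.8 FPKM in AAV-TKT. In Vehicle it had 286.5, 312 and 303 FPKM and in Ribose 340.2, 300.1 and 319 FPKM, with overlap in both experiments as deposited. Eif4g1 and Eif4g3 had log2 differences between -0.01 and 0.04 in both comparisons.

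Eif4ebp1, whose protein is the best known brake on eIF4E, was scarce, at 2.27, 2.15 and 2.53 FPKM in AAV-GFP and 1.91, 2.27 and 2.22 FPKM in AAV-TKT. It had 2.31, 3.83 and 3.61 FPKM in Vehicle and 3.07, 3.94 and 2.84 FPKM in Ribose, and its groups overlapped in both. Eif4ebp2, the neuronal form of this brake, had 8.71, 7.43 and 8.90 FPKM in AAV-GFP and 9.31, 8.36 and 8.74 FPKM in AAV-TKT. It had 12.0, 10.7 and 8.79 FPKM in Vehicle and 9.14, 9.61 and 9.24 FPKM in Ribose, where the Ribose values were close together within the Vehicle range. Eif4ebp2 was the more abundant of this pair in all 12 libraries. Eif4e outweighed the summed Eif4ebp genes by 2.91 to 4.71 in the AAV libraries and by 3.48 to 5.57 in the ribose libraries, with overlapping groups.

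Eif4enif1 codes for 4E-T, which carries eIF4E into the nucleus and to P bodies (chr11:3202392-3244588, plus strand). It had 16.9, 18.02 and 16.8 FPKM in AAV-GFP and 16.6, 15.8 and 15.99 FPKM in AAV-TKT. Each AAV-TKT library was below each AAV-GFP library, by as little as 0.1 FPKM, and the log2 difference was -0.09 (interval -0.25 to 0.07). In the ribose experiment it had 18.9, 18.1 and 15.7 FPKM in Vehicle and 14.6, 15.8 and 18.4 FPKM in Ribose, with overlap. The gene overlaps Drg1 on the other strand.

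In the last group, eIF5 and eIF5B act at start codon recognition and subunit joining, and eIF5A acts in early peptide bonds. Its remaining factor, eIF6, keeps free large subunits from joining. Eif6 (chr2:155819832-155826925, minus strand) had 33.3, 28.4 and 28.5 FPKM in AAV-GFP and 39.7, 36.2 and 34.4 FPKM in AAV-TKT. Every AAV-TKT library was above every AAV-GFP library. The means were 30.1 ± 2.78 (SD, n = 3) and 36.8 ± 2.68 FPKM (SD, n = 3), and the log2 difference of 0.28 (interval 0.07 to 0.49) was the largest positive one and had the smallest p of the members (limma adjusted p = 0.394). Over the 16 alternatives the difference stayed between 0.17 and 0.35, with adjusted p from 0.361 to 0.828. With ribose, Eif6 had 42.5, 43.3 and 41.7 FPKM in Vehicle and 41.3, 44.6 and 53.7 FPKM in Ribose. Ribose replicate 3 was high there and the other 2 Ribose libraries lay near the Vehicle libraries (0.12, interval -0.17 to 0.41). The gene overlaps the non-coding gene Gm16098 on the other strand.

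Eif5a had 192, 193 and 171.5 FPKM in AAV-GFP and 194, 210 and 189 FPKM in AAV-TKT, and 232, 239 and 256 FPKM in Vehicle against 218, 233 and 234 FPKM in Ribose. The groups overlapped in both experiments, with log2 differences of 0.09 and -0.08. Its paralog Eif5a2 was at 90.2 FPKM in the AAV table, and the ratio of Eif5a to Eif5a2 ranged from 1.85 to 2.26 there and from 2.66 to 3.05 in the ribose table. Eif5 and Eif5b overlapped as well, with log2 differences of 0.00 and 0.09 in the AAV comparison and 0.02 and 0.13 in the ribose comparison. The 5 genes of this group had positive differences in the AAV comparison as deposited, and 3 of 5 did with equal totals.

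**Figure D4:**
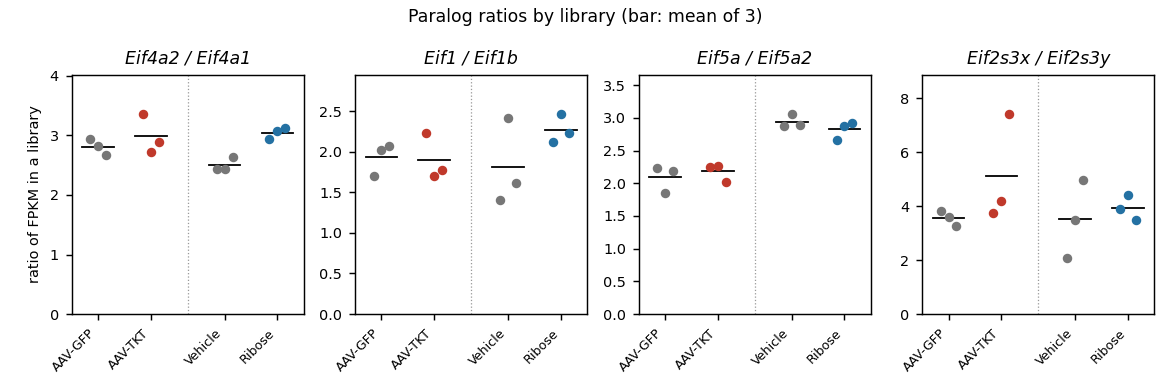
Ratio of the FPKM of a member to that of its paralog in each library (points) with the mean of 3 libraries (bar), for Eif4a2 over Eif4a1, Eif1 over Eif1b, Eif5a over Eif5a2 and Eif2s3x over Eif2s3y. The Eif4a2 to Eif4a1 ratio does not overlap between Vehicle (2.43 to 2.63) and Ribose (2.94 to 3.13), and the Eif2s3x to Eif2s3y ratio of 7.40 belongs to AAV-TKT replicate 3.

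The AAV effect minus the ribose effect was tested in limma over the 12853 genes tested in both tables. No member of 53 was called, and 1 gene of all was (0.00778%). At an unadjusted p under 0.05 there were 3 members, against 6.85% of all genes: Eif2b5 with a difference of effects of 0.32 (interval 0.05 to 0.60, adjusted p = 0.690), Eif3g with 0.34 (0.03 to 0.65, adjusted p = 0.702) and Eif3k with 0.30 (0.01 to 0.60, adjusted p = 0.716). The count was 0 with equal totals, with protein-coding genes at equal totals, without AAV-GFP replicate 1 and without AAV-TKT replicate 2. It was 1 with median-of-ratios scaling, with library weights, without AAV-GFP replicate 2, without AAV-GFP replicate 3 and without Vehicle replicate 2, and it was 4 with the replicate block. Shares of all genes were not computed for these alternatives. Eif3b came next with 0.23 (-0.02 to 0.48). These 4 genes had the smallest p for the difference of effects, a choice that favours opposite signs. Each had a positive difference in the AAV comparison and a negative one in the ribose comparison as deposited. No opposite response is read from them, and the AAV difference of Eif3b turned negative with equal totals. The median difference of effects was 0.06 over the members and 0.05 over all genes.

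Genes that work beside the initiation factors were read from the same fits, as 5 lists. Among 12 genes of mTORC1 and its regulators, the kinase complex that acts on the 4E-binding proteins, none was called in either comparison. The smallest p of this list in the AAV comparison belonged to Rptor, the substrate-binding subunit of mTORC1, at 15.7, 14.9 and 15.6 FPKM in AAV-GFP and 22.3, 17.0 and 16.8 FPKM in AAV-TKT (log2 difference 0.25, limma adjusted p = 0.480). Its groups did not overlap, and AAV-TKT replicate 1 was well above the rest. Rheb, the GTPase that activates mTORC1, followed with 0.15. Of the 12 genes, 5 had every AAV-TKT library above every AAV-GFP library (11.3% of all genes). In 1 gene every AAV-TKT library was below (7.2% of all genes). These counts are as deposited. Other scalings were not applied to this list, so no direction is read from it. Ribose against Vehicle was led by Akt1s1 with -0.49 and Rps6kb2 with -0.40, whose Ribose replicate 2 lay high within or above the Vehicle range while the other 2 Ribose libraries lay below it.

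None of 14 cap-binding partners and poly(A)-binding proteins was called. Cyfip1, which binds eIF4E together with the fragile X protein, had 22.3, 23.2 and 23.9 FPKM in AAV-GFP and 19.2, 19.4 and 20.7 FPKM in AAV-TKT. Every AAV-TKT library was lower, with a log2 difference of -0.22 (limma adjusted p = 0.386), and Larp1, which binds mRNAs of the translation machinery, had 0.14. Ribose against Vehicle gave a difference of -0.23 for Cyfip1 with overlapping groups (adjusted p = 1.00) and 0.31 for Mknk1, the gene of an eIF4E kinase.

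Of the 12 regulators and targets of the integrated stress response, the pathway downstream of the eIF2 kinases, 10 were tested in the AAV table and 11 in the ribose table, and none was called. Atf4, the transcription factor that this pathway induces by translation, had 59.3, 61.0 and 55.6 FPKM in AAV-GFP and 51.4, 58.7 and 55.0 FPKM in AAV-TKT (log2 difference -0.09), and Asns had 0.10. In the ribose comparison Ddit3, the gene of the stress factor CHOP, had 13.2, 12.9 and 11.3 FPKM in Vehicle and 9.51, 10.4 and 9.27 FPKM in Ribose. Chac1, another target of the same pathway, went the other way, at 4.59, 3.51 and 4.36 FPKM in Vehicle and 4.87, 6.03 and 7.81 FPKM in Ribose. Neither pair of groups overlapped, but the log2 differences of -0.33 and 0.48 had limma adjusted p of 1.00.

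The 11 elongation and termination factors held no called gene. In the AAV comparison the leading genes were the elongation factor genes Eef1d with 0.21 and Eef1g with 0.14, and in the ribose comparison Eef1b2 with -0.18 and the release factor gene Gspt2 with 0.29. None of the 5 genes of ribosome recycling, reinitiation and the hypusine modification of eIF5A was called either. Dohh, the hydroxylase that completes hypusine on eIF5A, had 31.2, 27.7 and 29.9 FPKM in AAV-GFP and 38.0, 35.1 and 32.7 FPKM in AAV-TKT. All AAV-TKT libraries were higher (log2 difference 0.24, limma adjusted p = 0.412), while the recycling factor gene Abce1 had -0.12. In the ribose comparison Denr, a reinitiation factor, had -0.39 and Dhps, the first enzyme of the hypusine pathway, had -0.18, both with adjusted p of 1.00.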

How the data were processed

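Per the labels' protocols, polyA RNA was isolated with the RNeasy Micro kit and strand-specific libraries were prepared. Per the submitters' processing notes, bcl2fastq 2.20, FastQC, Trim Galore and build GRCm38 were used. The aligner, the counter and the FPKM normalization were not given in the sources used here. Values are the FPKM the authors deposited, in 1 table per experiment, and every gene of the AAV table has a mean of at least 1 FPKM. Identifiers were matched to GENCODE M21 (13170 of 13178 and 21612 of 21650 got a symbol). Groups were compared within each table on log2(FPKM + 1), pseudocount 1, for genes averaging 1 FPKM or more, with limma 3.58.1 in R 4.3.3 (variance trend, Benjamini-Hochberg over all genes tested, threshold 0.05, 95% intervals). The difference of the effects used genes tested in both tables and shares 1 spread over all 4 groups. The fit was tested on simulated data. Near-identical copies were sought as 31-base words shared between GENCODE transcripts.

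All members may be named. Values in every library are given for the 8 members with the smallest p in each comparison, the 4 with the smallest p for the difference of effects, the eIF2 kinases, the Eif4ebp and Eif2s3 genes and the most abundant gene of each complex, and of each pathway list the 2 genes with the smallest p are named. Library ranges of Eif1b were added after its values were seen. The members and lists were chosen with earlier results of these data known. Alternatives were other pseudocounts, filters and scalings, a replicate block, library weights and left-out libraries.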

Additional observations from a re-analysis of the deposited data

How the results depend on the processing

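No initiation factor gene was called under any of the 16 alternatives of the AAV comparison, the 16 of the ribose comparison or the 21 of the difference of effects, and the lowest adjusted p among the members was 0.244, 0.616 and 0.390. The median log2 difference of the members in the AAV comparison, 0.03 as deposited, became -0.041 with equal totals, -0.031 with protein-coding genes at equal totals and -0.041 without AAV-GFP replicate 3 and AAV-TKT replicate 2 together. Leaving out 1 library at a time moved it between -0.0091 and 0.052: it turned negative without AAV-GFP replicate 3 (-0.0091) and without AAV-TKT replicate 2 (-0.000050), and was 0.010 without AAV-GFP replicate 1, 0.052 without AAV-GFP replicate 2 and 0.051 without AAV-TKT replicate 1. In the ribose comparison the median, -0.03 as deposited, became 0.027 with protein-coding genes at equal totals and -0.060 without Vehicle replicate 2 and Ribose replicate 2 together, and it ranged from -0.053 to -0.0055 when each library was left out in turn. The cause of these shifts was not tested. The genes called in the whole AAV table, 2 as reported, were 23 with library weights, 41 without AAV-GFP replicate 2 and 0 with the replicate block, so the background rate itself depends on these choices. Of 446 alternative values of the 28 named genes in each comparison, none was called, 16 in the AAV comparison moved by more than 1 SD, and 37 and 30 changed sign.

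Replicate numbers were not taken as pairs. Deviations of same-numbered libraries correlated at 0.03, 0.07 and -0.01 in the AAV experiment and at 0.04, 0.36 and 0.16 in the ribose experiment. Those of differently numbered libraries correlated at -0.10 to 0.08 in the AAV experiment and at -0.26 to 0.14 in the ribose experiment. These values do not settle whether the ribose libraries were paired. With the replicate number as a block, 0 members were called in each comparison, the medians stayed at 0.03 and -0.03, and 2 members in each had an unadjusted p under 0.05. With the block, the share of all genes at that p was not computed. The unknown depth limits what can be said of members near 2 FPKM, such as Eif4ebp1 and Eif2ak4.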
